A study of Mus musculus with 8 samples.

Results

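The genes described here are named for cytochrome P450 enzymes, UDP-glycosyltransferases (UGT), cytosolic sulfotransferases (SULT) and glutathione S-transferases (GST). They were all genes with a symbol beginning in Cyp, Ugt or Sult and a digit, or in Gst and the letter of a class, that had a probe set naming no other gene, and where a gene had several, the brightest on average was taken. This gave 132 of 19935 measured genes, with 86 P450, 11 UGT, 16 SULT and 19 GST genes. Of these, 39 had a mean above the array median of 6.35, a log2 level which 12059 genes in all exceeded.

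The 8 arrays (Affymetrix Mouse Gene 1.0 ST) comprised 4 of parous and 4 of age-matched virgin control mice, all of the strain FVB/NHanHsd, and no transgene or mutant allele is named for either group. Every array held RNA of total mammary cell suspensions, not sorted by flow cytometry, from the fourth glands of 5 mice pooled together. The parous mice were mated at 42 days of age, lactated for 21 days and, per the labels, had 28 days of involution, for which the methods of the study give a longer time. The virgin mice were not mated, and their age in days and the estrous stage of each pool are not given in the sources used here.

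P450 enzymes insert oxygen into steroids, sterols, fatty acids and foreign compounds, with electrons from partner proteins. UGT and SULT enzymes attach sugars and sulfate to hormones and drugs, which makes them soluble and usually inactive, and GST enzymes couple reactive compounds to glutathione. In the mammary gland these enzymes are known for handling estrogens and carcinogens, and several are induced through the aryl hydrocarbon receptor or the antioxidant regulator NRF2.

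The suspensions carried the keratins of their label. Mean log2 levels were 13.19 for the luminal keratin Krt8 and 11.18 for the basal keratin Krt14. Stromal and immune cells were also present, with 10 of 10 fibroblast, 10 of 10 endothelial and 10 of 10 macrophage markers above the array median. Albumin (Alb), which defines hepatocytes, the cells richest in many of these enzymes, lay between 3.72 and 4.18, below the array median. Of the 9 hepatocyte markers, the fibrinogen chains Fgb and Fgg were above it, with lower values in parous mice (log2 fold changes -2.15 and -2.18, adjusted p = 0.118 and 0.097 from limma). Marker lists were scored per array by averaging their genes, each centred beforehand. Virgin replicates 2 and 4 had the highest proliferation scores (1.29 and 1.82). Virgin replicates 1 and 3 had scores of -0.19 and -0.26, and parous arrays ranged from -0.94 to -0.49. Scores of luminal progenitor markers were -0.25 to 0.03 in virgin and 0.05 to 0.13 in parous arrays, and those of basal markers 0.014 to 0.257 and -0.21 to 0.0016. Luminal markers scored -0.018 to 0.209 in virgin and -0.16 to -0.015 in parous arrays, and hormone-sensing luminal markers -0.10 to 0.56 and -0.64 to -0.06. In such mixed samples, fewer cells of a type and less RNA per cell cannot be told apart.

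The comparison asked whether an early pregnancy left these enzymes at another level after involution. The alpha-class transferase Gsta3 rose in parous mice and was the only 1 of 132 genes to pass the criteria, a fold change over 1.5 and an adjusted p under 0.05 from limma. No gene of the 132 fell under these criteria, and none of the 39 above the array median passed in either direction. Of all 34760 probe sets, 0.239% passed as higher and 0.158% as lower in parous mice. Among all genes above the array median the shares were 0.257% and 0.315%, so that 0 of 39 genes is near the background.

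**Figure D1:**
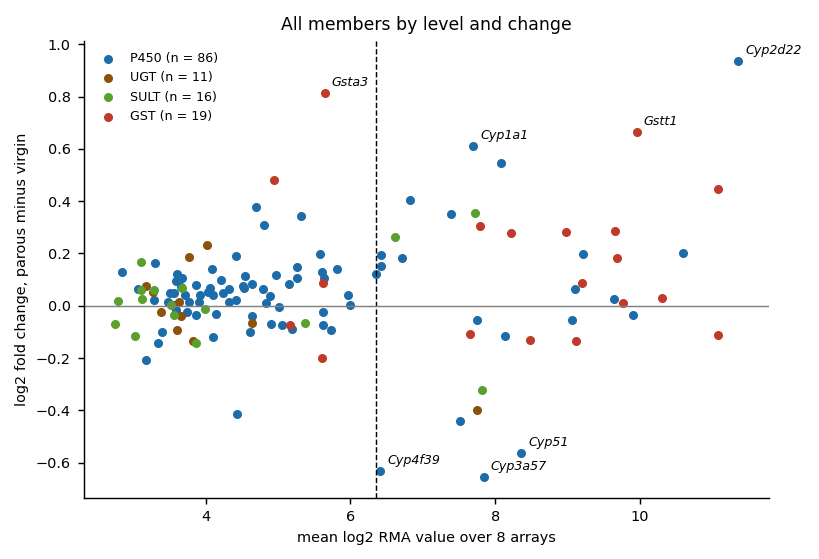
Each point is 1 of the 132 genes, with the mean log2 RMA value over 8 arrays on the horizontal axis and the log2 fold change of parous over virgin mice on the vertical axis. The dashed line marks the array median of 6.35, to the left of which most genes lie close to 0 and Gsta3 stands at 0.81.

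Gsta3 is known for conjugating the aflatoxin epoxide in liver and, in its human counterpart, for a double-bond isomerization in steroid synthesis. Its log2 values were 5.41, 5.27, 5.25 and 5.01 in virgin replicates 1 to 4 and 6.06, 5.88, 6.21 and 6.05 in parous replicates 1 to 4. All parous arrays lay above all virgin arrays, by a gap wider than the spread of either group. Log2 fold change was 0.81 ± 0.11 (SE, n = 4 pools per group, 95% confidence interval 0.57 to 1.06, adjusted p = 0.020 from limma), which is 1.76-fold. The probe set was below the median of its own array on all 8 arrays, so it was a dim signal. Without 1 array the adjusted p from limma ranged from 0.032 to 0.085, and the call was lost without virgin replicate 2 or any 1 of the parous replicates. It was also lost without virgin replicates 2 and 4 together (log2 fold change 0.72, adjusted p = 0.094 from limma) and with the replicate number as a block (adjusted p = 0.090 from limma). Those 2 arrays had high proliferation scores and low lymphocyte, macrophage and endothelial scores, whose part in the call was not tested.

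The promoter window of Gsta3 is shown because it carries the core of an antioxidant response element, to which NRF2 binds. The window runs from 250 bases before to 50 after the start of the gene, at chr1:21240335-21240634 on the plus strand (RefSeq, GRCm38.p6), and capitals mark TGACNNNGC, searched on both strands.
Gsta3: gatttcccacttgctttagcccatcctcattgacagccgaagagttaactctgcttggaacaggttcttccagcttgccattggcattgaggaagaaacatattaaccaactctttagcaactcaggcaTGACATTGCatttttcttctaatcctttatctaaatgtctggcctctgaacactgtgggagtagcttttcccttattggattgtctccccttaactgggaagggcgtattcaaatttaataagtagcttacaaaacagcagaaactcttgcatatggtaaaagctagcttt
The motif was found once in this window. It occurred in 12.4% of 32851 promoter windows of this length. By gene the share was 13.99% of all genes, 10 of the 105 P450, UGT, SULT and GST genes that had a window (9.52%), and 5 of the 32 of these above the array median (15.6%). These 5 were Cyp2j6, Cyp4f18, Cyp4f39, Gstm5 and Gstm7.

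Without reference to a threshold on p, 7 of the 39 genes above the array median had 4 parous arrays that all lay above the 4 virgin arrays (17.9%), and 2 had them all below (5.13%). The same was true of 5.94% and 7.05% of all genes above the array median. Among the 7 was Gstm3, whose groups nearly met. Whether its probe set reads Gstm3 was not tested, and a dimmer probe set of that gene had overlapping groups. An unadjusted p under 0.05 was reached by 9 of 39 as higher (23.1%) and 4 as lower (10.3%), against backgrounds of 8.58% and 10.6%. The median log2 fold change of the 39 was 0.12, with 25 over 0 (64.1%), and that of all genes above the array median was -0.02, with 45.0% over 0. Without virgin replicates 2 and 4 the median of the 39 was 0.067, with 29 over 0, and the background share over 0 is not given for that fit. Then 9 of the 39 were higher without overlap, against a background of 9.38%, and 5 of the 39 lower, against 11.4%. No overlap gives an exact 2-sided permutation p of 0.0286, the smallest that 4 against 4 arrays allow, and 0.376 after adjustment over all probe sets.

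**Figure D2:**
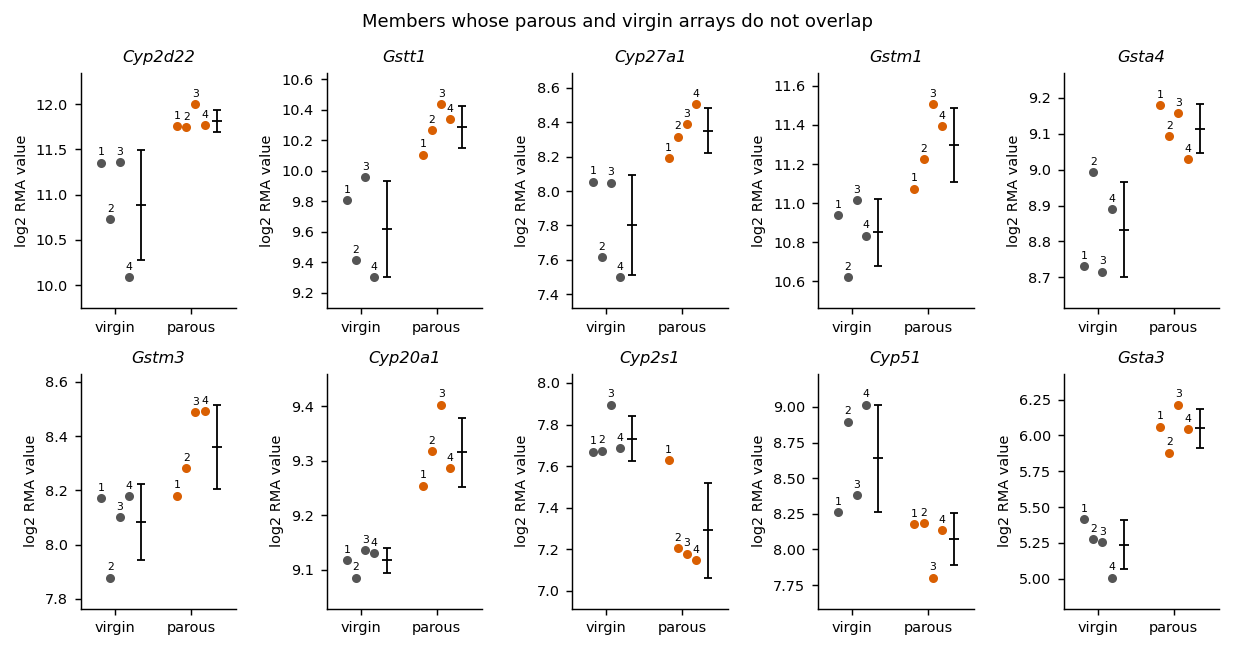
Log2 RMA values by array for the 9 genes above the array median whose groups do not overlap, and for Gsta3. Grey points are virgin and orange points parous arrays, numbered by replicate, and bars give the mean ± SD of 4 arrays. Virgin replicates 2 and 4 are the most distant from the parous arrays in Cyp2d22, Gstt1, Gstm1, Cyp27a1 and Cyp51.

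Among the GST genes, 14 of 19 lay above the array median, and 10 of the 14 had a log2 fold change over 0, against 45.0% of all genes above the array median. Gstt1, a theta-class enzyme that acts on small halogenated compounds, read 9.81, 9.41, 9.96 and 9.30 in virgin mice and 10.11, 10.26, 10.43 and 10.34 in parous mice. Its lowest parous array was above its highest virgin array, and virgin replicates 2 and 4 were the lowest of all. This was a log2 fold change of 0.67 ± 0.16 (SE, n = 4 per group, adjusted p = 0.154 from limma), reduced to 0.40 without those virgin arrays (adjusted p = 0.411). The other theta enzymes above the array median, Gstt2 and Gstt3, had log2 fold changes of 0.30 and 0.29 with overlapping groups, and of 0.028 and 0.146 without those virgin arrays.

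Gstm1, the mu-class enzyme best known for detoxifying aromatic epoxides, read 10.94, 10.62, 11.01 and 10.83 in virgin mice and 11.07, 11.22, 11.51 and 11.39 in parous mice. The groups were separate but close, with parous replicate 1 just above virgin replicate 3. This gave a log2 fold change of 0.45 ± 0.12 (SE, n = 4 per group, adjusted p = 0.215 from limma). Virgin replicates 2 and 4 were the lowest of all, and without them the log2 fold change was 0.32 (adjusted p = 0.657 from limma). The other mu genes above the array median ranged from -0.13 (Gstm5) to 0.28 (Gstm3). The dim mu gene Gstm6 also had separate groups, at 4.54 to 4.91 in virgin and 4.93 to 5.49 in parous mice, a log2 difference of 0.48 with an adjusted p of 0.219 from limma.

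Gstm3 calls for care in reading. Its chosen probe set read 8.17, 7.88, 8.10 and 8.18 in virgin and 8.18, 8.28, 8.49 and 8.49 in parous mice, with virgin replicate 4 and parous replicate 1 almost equal. Parous over virgin, the log2 fold change was 0.28 ± 0.11 (SE, n = 4 per group, adjusted p = 0.369 from limma). A dimmer probe set of the same gene, with a mean of 6.01, had a log2 fold change of -0.03. By identifier the dimmer probe set stands among those of Gstm7, Gstm6, Gstm2 and Gstm1, whereas the chosen one stands among those of Col10a1, Frk, Hs3st5 and Hdac2. Whether the chosen probe set reads Gstm3 was not tested, and near-identical family members may share signal on these arrays.

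Gsta4, which conjugates the lipid peroxidation product 4-hydroxynonenal, read 8.73, 8.99, 8.72 and 8.89 in virgin and 9.18, 9.09, 9.16 and 9.03 in parous mice. Here virgin replicates 2 and 4 were the ones nearest to the parous arrays, unlike in Gstt1. The log2 fold change of 0.28 ± 0.09 (SE, n = 4 per group, adjusted p = 0.269 from limma) was 0.39 without those virgin arrays. Genes of the remaining classes had overlapping groups. Gstp1, the pi-class enzyme common in epithelia, differed by -0.11 (95% confidence interval -0.36 to 0.14), Gstk1, a mitochondrial and peroxisomal enzyme, by 0.03 (-0.18 to 0.24), and Gsto1, of the omega class, by 0.01 (-0.18 to 0.20). Gstz1, which also serves tyrosine breakdown, differed by -0.13 (-0.33 to 0.07).

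**Figure D3:**
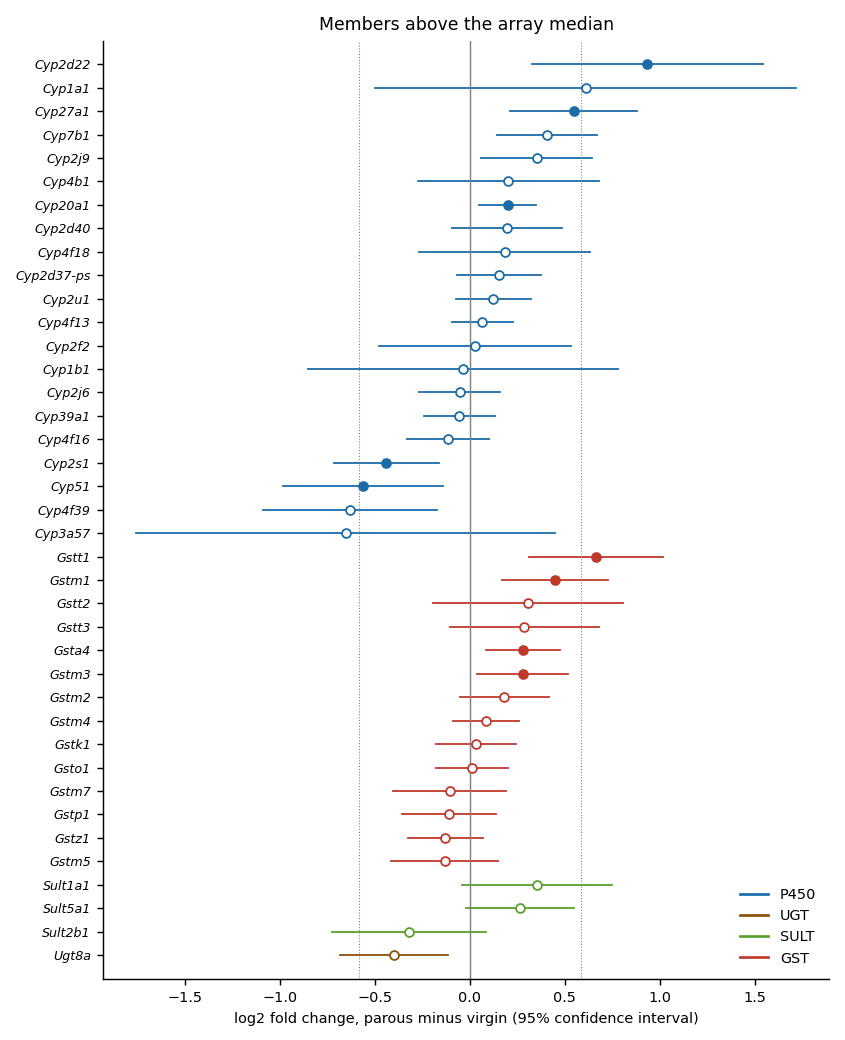
Log2 fold change of parous over virgin mice with its 95% confidence interval from limma for the 39 genes above the array median, coloured by superfamily. Filled points have no overlap between the groups, and dotted lines mark 1.5-fold in either direction. The intervals of Cyp1a1, Cyp1b1 and Cyp3a57 are the widest.

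Of the P450 genes that handle sterols, 4 of 7 lay above the array median. Cyp51, the lanosterol demethylase of cholesterol synthesis, read 8.26, 8.90, 8.38 and 9.02 in virgin and 8.18, 8.18, 7.80 and 8.13 in parous mice. All parous arrays were lower, and virgin replicates 2 and 4 were the highest of the 8. On the log2 scale the difference was -0.56 ± 0.18 (SE, n = 4 per group, adjusted p = 0.297 from limma), and -0.25 without those virgin arrays. On the same arrays proliferation scores were high and lymphocyte, macrophage and endothelial scores low, and the part of these in the difference was not tested.

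Cyp27a1, the mitochondrial enzyme that makes 27-hydroxycholesterol, an oxysterol able to bind the estrogen receptor, read 8.06, 7.62, 8.05 and 7.50 in virgin and 8.19, 8.32, 8.39 and 8.50 in parous mice. Its groups did not overlap either, in the opposite direction to Cyp51. On average the log2 fold change was 0.55 ± 0.15 (SE, n = 4 per group, adjusted p = 0.207 from limma) and 0.30 without virgin replicates 2 and 4 (adjusted p = 0.558). Cyp7b1, which hydroxylates oxysterols and androgens, read 6.56, 6.48, 6.83 and 6.59 in virgin and 6.76, 7.04, 7.13 and 7.16 in parous mice. Only parous replicate 1 lay within the virgin range, and the log2 fold change was 0.41 ± 0.12 (SE, n = 4 per group, adjusted p = 0.235 from limma). Cyp39a1, an oxysterol hydroxylase, differed by -0.05 with overlapping groups.

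The P450 genes of steroid hormone synthesis were all dim, with 5 of 5 below the array median. Side-chain cleavage enzyme Cyp11a1 lay between 4.81 and 5.41 in virgin and 5.22 and 5.68 in parous mice (log2 fold change 0.34, adjusted p = 0.441 from limma). The 17-hydroxylase and lyase Cyp17a1 differed by -0.07 (95% confidence interval -0.24 to 0.11). Genes for vitamin D and retinoic acid enzymes were likewise below the array median in the 4 cases analysed. Cyp19a1 and Cyp24a1 were not analysed here.

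Cyp1a1 and Cyp1b1 hydroxylate estrogens and activate polycyclic hydrocarbons, and both are targets of the aryl hydrocarbon receptor. Cyp1a1 read 8.30, 7.71, 6.65 and 6.88 in virgin and 8.56, 8.81, 7.67 and 6.93 in parous mice. Replicates 1 and 2 were above replicates 3 and 4 in both groups, a pattern noticed in the values that 6.91% of all genes above the array median and 2 of the 39 genes (Cyp1a1 and Cyp2f2) shared. The log2 fold change of 0.61 had a confidence interval from -0.50 to 1.72 (adjusted p = 0.703 from limma). Its spread within groups, a pooled SD of 0.81, was exceeded by 0.771% of genes above the array median. Cyp1b1 read 9.88, 10.64, 8.78 and 10.36 in virgin and 9.99, 10.05, 9.66 and 9.82 in parous mice. The virgin arrays enclosed all parous arrays, and the log2 fold change was -0.04 (-0.85 to 0.78, adjusted p = 0.984 from limma).

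The windows of Cyp1a1 and Cyp51 are printed to set a receptor target beside a sterol gene, with capitals on the xenobiotic response element core GCGTG, searched on both strands, to which the aryl hydrocarbon receptor binds. They lie at chr9:57697363-57697662 on the plus strand and chr5:4104648-4104947 on the minus strand (RefSeq, GRCm38.p6).
Cyp1a1: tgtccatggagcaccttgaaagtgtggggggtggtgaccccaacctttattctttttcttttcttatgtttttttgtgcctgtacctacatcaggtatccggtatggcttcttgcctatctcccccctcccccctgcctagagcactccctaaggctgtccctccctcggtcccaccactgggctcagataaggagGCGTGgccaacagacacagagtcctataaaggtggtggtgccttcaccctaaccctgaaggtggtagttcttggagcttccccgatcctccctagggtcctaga
Cyp51: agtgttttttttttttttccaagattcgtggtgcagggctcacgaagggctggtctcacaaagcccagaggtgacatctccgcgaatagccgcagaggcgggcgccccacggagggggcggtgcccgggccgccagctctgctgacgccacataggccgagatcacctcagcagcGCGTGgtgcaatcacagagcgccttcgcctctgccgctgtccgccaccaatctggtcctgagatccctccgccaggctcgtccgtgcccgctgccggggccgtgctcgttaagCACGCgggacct
Cyp1a1 held 1 match and Cyp51 held 2, of which 1 was on the opposite strand. The core is short and was in 32.4% of all windows. By gene it was in 35.2% of all genes, in 24 of the 105 genes with a window (22.9%) and in 12 of the 32 above the array median (37.5%). A sterol response element written as TCACNCCAC was in 1.24% of all windows and was not in that of Cyp51. Other spellings of the element were not searched, so its absence from this window is not shown.

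**Figure D4:**
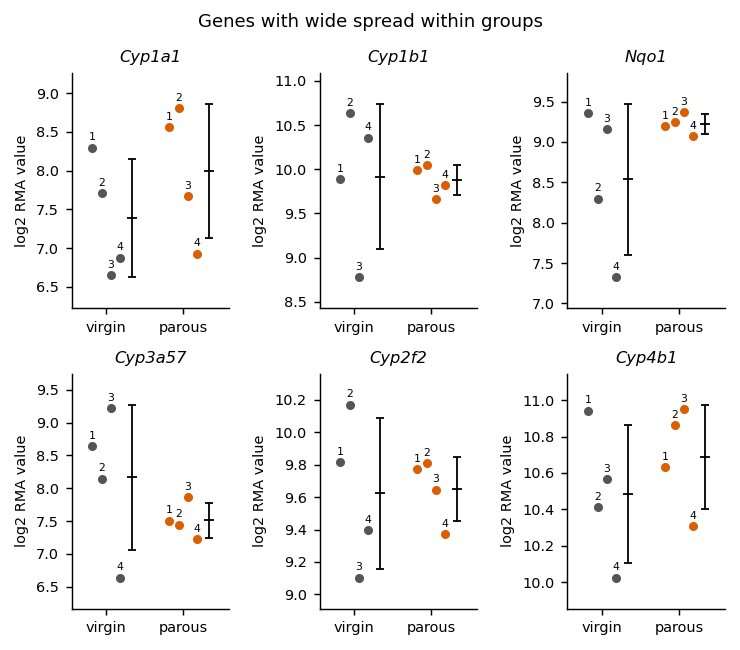
Log2 RMA values by array for 5 P450 genes and the NRF2 target Nqo1, with virgin arrays in grey, parous arrays in orange, replicate numbers above the points and bars for the mean ± SD of 4 arrays. Cyp1a1 varies as widely within as between groups, and Cyp1b1 and Cyp3a57 range further among virgin than among parous arrays.

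In the CYP2 family, 8 of 44 genes lay above the array median, with Cyp2r1 counted among the vitamin D and retinoic acid enzymes instead. Cyp2d22, a proposed mouse counterpart of the human drug-metabolizing CYP2D6, read 11.35, 10.73, 11.36 and 10.09 in virgin and 11.76, 11.75, 11.998 and 11.77 in parous mice. Parous arrays were tightly grouped, while virgin replicates 2 and 4 stood well below virgin replicates 1 and 3. Its log2 fold change, 0.93 ± 0.27 (SE, n = 4 per group, adjusted p = 0.235 from limma), was 0.46 without virgin replicates 2 and 4 (adjusted p = 0.248). The 10 genes of the CYP2D subfamily, with Cyp2d37-ps, a pseudogene by its symbol, among them, had log2 fold changes from -0.02 to 0.93. Their median was 0.11 and 9 were over 0, as were 87 of all 132 genes. Near-identical family members may share signal on these arrays, so the count of 9 is not read as a result. Of the 10 CYP2D genes, 3 lay above the array median and 7 below it, and only Cyp2d22 had separate groups.

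Cyp2s1, an epithelial P450 that oxidizes retinoids and foreign compounds, read 7.67, 7.67, 7.90 and 7.69 in virgin and 7.63, 7.20, 7.18 and 7.15 in parous mice. Parous replicate 1 lay just under the virgin arrays and apart from the other parous arrays. The mean difference was -0.44 ± 0.12 on the log2 scale (SE, n = 4 per group, adjusted p = 0.218 from limma), and -0.49 without virgin replicates 2 and 4. Cyp2j9, an arachidonic acid epoxygenase family gene, differed by 0.35 (adjusted p = 0.346 from limma) with 1 parous array inside the virgin range, and by 0.15 without virgin replicates 2 and 4. Cyp2f2, which bioactivates naphthalene, differed by 0.03 (95% confidence interval -0.48 to 0.53). None of the 13 CYP2C genes, which in liver metabolize drugs and fatty acids, was above the array median.

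Cyp20a1, a P450 with no settled substrate, had the tightest values of those described, 9.12, 9.09, 9.14 and 9.13 in virgin and 9.25, 9.32, 9.40 and 9.29 in parous mice. The groups were separate although the change was small, at 0.20 ± 0.07 on the log2 scale (SE, n = 4 per group, adjusted p = 0.302 from limma). Its pooled SD of 0.048 was exceeded by 98.1% of genes above the array median.

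Cyp3a57, of the family that oxidizes steroids and drugs in liver and gut, read 8.65, 8.15, 9.23 and 6.64 in virgin and 7.51, 7.44, 7.87 and 7.23 in parous mice. Virgin replicate 4 was below every parous array and the other virgin arrays were above them. Its log2 fold change was -0.65 (95% confidence interval -1.76 to 0.45, adjusted p = 0.674 from limma), and -1.43 without virgin replicates 2 and 4 (adjusted p = 0.087). The score of the 7 hormone-sensing luminal markers, of which 6 were above the array median, was likewise lowest among virgin arrays in replicate 4 (-0.10) and highest in replicate 3 (0.56), and its part in the difference was not tested. A dim probe set that names Cyp3a59, Cyp3a57 and Cyp3a25 together gave a log2 difference of -0.71, which did not pass (adjusted p = 0.455 from limma).

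The CYP4 family oxidizes the ends of fatty acids and eicosanoids, and 5 of its 16 genes were above the array median. Cyp4f39 read 6.96, 6.82, 6.92 and 6.20 in virgin and 6.31, 6.23, 6.15 and 5.67 in parous mice. Virgin replicate 4 lay within the parous range, and the gene stood close to the array median, above it on 3 of 8 arrays. Its log2 fold change was -0.63 ± 0.20 (SE, n = 4 per group, adjusted p = 0.287 from limma). Cyp4b1, which activates aromatic amines and furans, differed by 0.20 (-0.27 to 0.68) and by -0.07 without virgin replicates 2 and 4.

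Sulfation and glucuronidation enzymes were mostly dim. Among SULT genes 3 of 16 were above the array median. Sult2b1, which sulfates cholesterol, read 7.86, 8.11, 8.06 and 7.85 in virgin and 8.17, 7.66, 7.29 and 7.47 in parous mice. Parous replicate 1 was the highest of all 8 arrays and the other parous arrays the lowest, with a log2 fold change of -0.32 (95% confidence interval -0.73 to 0.09, adjusted p = 0.559 from limma). Sult1a1, the phenol sulfotransferase, differed by 0.35 (-0.04 to 0.75) and Sult5a1 by 0.26 (-0.02 to 0.55), against 0.14 and 0.42 without virgin replicates 2 and 4. The dim Sult4a1 and Sult1c1 differed by -0.06 and -0.01. The estrogen sulfotransferase Sult1e1 lay between 2.93 and 3.24 on all arrays and differed by -0.12 (-0.30 to 0.06).

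The only UGT gene above the array median was Ugt8a, which transfers galactose to ceramide and is not a hormone-glucuronidating enzyme. It read 7.97, 7.77, 8.21 and 7.85 in virgin and 7.52, 7.81, 7.42 and 7.45 in parous mice. Parous replicate 2 overlapped with virgin replicate 2, and the log2 fold change was -0.40 ± 0.12 (SE, n = 4 per group, adjusted p = 0.275 from limma). All 7 UGT2B genes, which glucuronidate steroids, were below the array median with log2 fold changes from -0.14 (Ugt2b34) to 0.19 (Ugt2b38) and -0.07 for Ugt2b37. Ugt3a2, also dim, differed by 0.23 (adjusted p = 0.568 from limma). A probe set shared by the UGT1A genes, which conjugate bilirubin, estrogens and phenols, had a mean of 6.67 and a log2 fold change of 0.00 (SE 0.15).

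**Figure D5:**
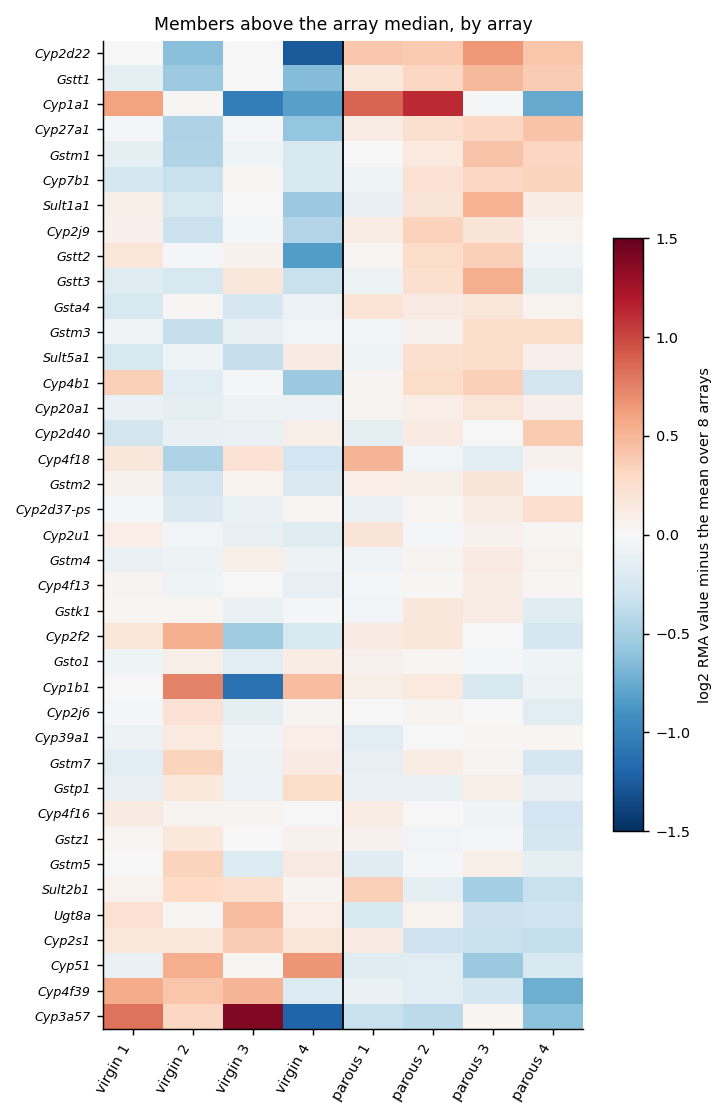
Heat map of the 39 genes above the array median (rows, ordered by log2 fold change) over the 8 arrays (columns). Colour gives the log2 RMA value minus its mean over the arrays, red above and blue below. In Cyp2d22, Cyp1a1, Cyp1b1 and Cyp3a57 the strongest colours differ between arrays of the same group.

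The enzymes depend on cofactors, electron donors, receptors and transporters, and 114 of 126 genes in 8 lists of these were measured. None passed the criteria in limma, and 85 lay above the array median. An unadjusted p under 0.05 was reached by 12 as higher (10.5%) and 8 as lower (7.02%), against 6.54% and 7.49% of all genes and the 8.58% and 10.6% of those above the array median. The median log2 fold change of the 114 was 0.04. Of the receptors, Ahr, which drives Cyp1 genes, read 10.24, 10.45, 10.11 and 10.47 in virgin and 10.01, 10.002, 10.04 and 9.95 in parous mice. All parous values were lower and nearly equal, with a log2 fold change of -0.32 ± 0.10 (SE, n = 4 per group, adjusted p = 0.259 from limma), and -0.17 without virgin replicates 2 and 4. Rxra, the partner of several nuclear receptors, differed by 0.24 (adjusted p = 0.455 from limma), or 0.096 without those arrays. Of the electron donors, Cyb5a differed by 0.31 and Fdx1, which serves mitochondrial P450 enzymes, by -0.25, both with overlapping groups, and the differences were 0.035 and 0.092 without virgin replicates 2 and 4.

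Among the NRF2 target genes, Nqo1, a quinone reductase that is also a receptor target, read 9.36, 8.30, 9.16 and 7.32 in virgin and 9.20, 9.24, 9.37 and 9.07 in parous mice. Virgin replicates 2 and 4 alone were low, so that the log2 fold change of 0.68 (adjusted p = 0.581 from limma) was -0.04 without them. Hmox1, heme oxygenase, differed by 0.34 (adjusted p = 0.612 from limma). In glutathione handling, Ggt5, which cleaves glutathione conjugates outside the cell, read 8.22, 7.50, 8.50 and 7.20 in virgin and 8.71, 8.74, 8.76 and 8.95 in parous mice. Its parous arrays were all higher, with a log2 fold change of 0.93 ± 0.27 (SE, n = 4 per group, adjusted p = 0.233 from limma) that was 0.43 without virgin replicates 2 and 4, whereas glutathione synthetase Gss had separate groups in the other direction (-0.33, adjusted p = 0.295 from limma, and -0.18 without those arrays).

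Of the steroid dehydrogenases and reductases outside the 4 superfamilies, Akr1c18 and Hsd11b1 differed most. Akr1c18, which inactivates progesterone, read 8.22, 6.60, 8.01 and 7.52 in virgin and 8.93, 8.93, 8.85 and 9.10 in parous mice. Every parous array was above every virgin array, and virgin replicate 2 was the lowest. The log2 fold change was 1.36 ± 0.31 (SE, n = 4 per group, adjusted p = 0.150 from limma). Hsd11b1, which regenerates active glucocorticoid, read 6.77, 6.27, 7.64 and 6.31 in virgin and 7.68, 7.66, 7.75 and 8.34 in parous mice. Virgin replicate 3 was nearly as high as the parous arrays. The log2 fold change was 1.11 ± 0.30 (SE, n = 4 per group, adjusted p = 0.219 from limma), which did not pass. It passed the criteria at 1.40 without virgin replicate 3 (adjusted p = 0.037 from limma), a fit that omits the virgin array nearest the parous ones. Without virgin replicates 2 and 4 the log2 fold change of Hsd11b1 was 0.65 (adjusted p = 0.698 from limma), and that of Akr1c18 was 0.84 (adjusted p = 0.054 from limma). Fibroblast marker scores ran from -0.53 to 0.05 in virgin and from -0.10 to 0.55 in parous mice, and their part in these differences was not tested. Of the 10 fibroblast markers, 5 were higher and 1, Postn, lower at an unadjusted p under 0.05 from limma. The score thus does not describe every gene of the list.

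The retinaldehyde dehydrogenase Aldh1a1 had separate groups, at 6.94 to 7.33 in virgin and 7.57 to 8.55 in parous mice (log2 fold change 0.78, adjusted p = 0.182 from limma), and the alcohol dehydrogenase Adh1 differed by 0.69 (adjusted p = 0.389 from limma), or by 0.25 without virgin replicates 2 and 4. Of the genes that supply UDP-sugars, Ugdh, which makes UDP-glucuronic acid, differed by 0.29 and Slc35d1, which carries it into the endoplasmic reticulum, by -0.28 (-0.11 without virgin replicates 2 and 4). The conjugate exporter Abcc3 read 9.48, 8.54, 9.44 and 7.42 in virgin and 7.92, 7.67, 7.87 and 7.63 in parous mice. Virgin replicate 4 was below all parous arrays and the other virgin arrays were above them, a pattern also seen in Cyp3a57. The log2 fold change was -0.95 (adjusted p = 0.437 from limma), which did not pass. It was -1.69 without virgin replicates 2 and 4 (adjusted p = 0.0083 from limma), past the criteria. That fit was chosen after seeing the data and omits the 2 lowest virgin arrays of this gene. The efflux pump Abcb1a differed by 0.29 (adjusted p = 0.748 from limma).

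The 93 genes below the array median included Gsta3, and the other 92 had log2 fold changes from -0.42 to 0.48 with a median of 0.04. Of these 92, 3 had separate groups with parous mice higher (Gstm6, Cyp2c23 and Sult1b1) and 1 with parous mice lower (Ugt2b34). Both counts are near the background, as 2.58% and 1.73% of all genes below the array median had such groups. Nearest to the array median were Cyp4f39 (6.41) and Cyp2u1 (6.35) inside and Cyp26c1 (5.998) and Cyp46a1 (5.96) outside.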

How the data were processed

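RNA from total mammary cell suspensions of parous and age-matched virgin control mice was hybridized to 8 arrays, 1 per pool of 5 mice and 4 per group. According to the methods, lymph nodes and adipocytes were removed, red blood cells lysed and fibroblasts reduced by attachment. The deposited values are log2 expression made by the authors with rma() of affy, which corrects background, normalizes by quantiles and summarizes probe sets; the methods name a Bioconductor release beside it. The number of arrays limits the precision, and array medians were 6.29 to 6.43.

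Of 34760 probe sets, 21640 named 1 gene, and 17 that named several genes, at least 1 of these superfamilies among them, were set apart. Groups were compared in R 4.3.3 with limma 3.58.1 (lmFit and eBayes, no covariate, 2-sided), and p-values were adjusted by Benjamini-Hochberg across every probe set. The criteria were a mean log2 value over 2, an adjusted p under 0.05 and a change of more than 1.5-fold. The procedure was tested on simulated data. The array median is the mean of the 8 array medians, and levels of different probe sets were otherwise not compared. Pools were counted as replicates, so that p-values measure the spread between pools. Genes, lists and tests were chosen with earlier results of these data known. The text names genes that passed, genes above the array median with no overlap, the 5 highest means of each superfamily, the 5 largest changes each way above the array median, chosen steroid genes, and in each list those that passed or the 2 largest changes; others were picked after their values were seen. Alternatives covered the replicate block, single arrays left out, normalization, centring, variance model, array weights, probe set filters and criteria. Some genes of the 4 superfamilies are not reported here.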

Additional observations from a re-analysis of the deposited data

Results flagged for a closer look

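Of 98 groups of 4 arrays examined for an array far from the others, 6 had one whose gap to its nearest neighbour, divided by the range of the group, was above Dixon's 95% critical value. Chance gives about 1 in 20. In parous mice these were Cyp2d22, highest in replicate 3 (11.998, next 11.77, ratio 0.920), Cyp51, lowest in replicate 3 (7.80, next 8.13, ratio 0.869), and Gstp1, highest in replicate 3 (11.16, next 10.97, ratio 0.945). Parous replicate 1 was high for Cyp2s1 (7.63, next 7.20, ratio 0.883) and parous replicate 4 for Hsd11b1 (8.34, next 7.75, ratio 0.874). In virgin mice, replicate 3 was high for Cyp2s1 (7.90, next 7.69, ratio 0.923).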

How the results depend on the processing

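No gene of the 132 passed, against 1 as reported, with the replicate block, with quantile normalization again, with only probe sets above the array median tested (Gsta3 is below it), at a fold change over 2, and without virgin replicates 2 and 4, an alternative chosen after seeing the data. The adjusted p of Gsta3 from limma was 0.090 with the block and 0.063 after renormalization. With an unadjusted p under 0.05 in place of the adjusted p and the fold criterion of 1.5 kept, 3 genes were higher and 1 lower (2 and 1 above the array median), and 6 genes of the lists of cofactors, receptors and related enzymes (supporting genes) were higher and 1 lower. Leaving out single arrays gave 0 to 1 genes of the 132 higher, 0 to 1 supporting genes higher (1 without virgin replicate 3) and 2 to 5 genes lower without overlap, with 4 without virgin replicate 4 and 5 without parous replicate 1. That last count was 1 after centring arrays on their medians. Without virgin replicates 2 and 4 it was 5, the median log2 fold change of the 39 genes was 0.067, and 1 supporting gene was lower. Of all genes above the array median, 7.05% were lower without overlap on the 8 arrays and 11.4% without virgin replicates 2 and 4. The share is not given here for the other alternatives, so their counts are not read as a result about these genes. Same-numbered arrays deviated together with correlations of 0.115, 0.183, -0.057 and 0.307, and arrays of different numbers with correlations from -0.256 to 0.191. Not every array correlated best with its own number, and the arrays were not treated as pairs. This does not exclude pairing, and the call of Gsta3 depended on the choice. The study describes separate experiments that each held virgin and parous mice, without tying replicate numbers to them.

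The log2 fold change changed sign for Gsto1 on centring (-0.0066), Cyp1b1 (0.047) and Sult1c1 (0.020) with array weights, and without virgin replicates 2 and 4 Cyp4b1 (-0.066), Cyp1b1 (0.548), Gstp1 (0.055), Fdx1 (0.092), Nqo1 (-0.041) and Abcb1a (-0.109). Without those arrays 8 of the 39 genes turned sign in all, the others being Gstm5 (0.037), Cyp39a1 (0.038), Cyp2j6 (0.048), Gstm7 (0.067) and Cyp4f18 (-0.102). Leaving out single arrays gave ranges of -0.416 to 0.205 for Cyp1b1, -0.145 to 0.210 for Cyp2f2, -0.069 to 0.061 for Sult1c1, -0.019 to 0.096 for Gstk1 and -0.040 to 0.048 for Gsto1. The cause was not tested. No detection call was used, so dim signals such as that of Gsta3 were not set against background.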

Other observations

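Of the 17 probe sets that name several genes, at least 1 of them from the 4 superfamilies, none passed the criteria in limma, with a lowest adjusted p of 0.455. Those of Gstp1 and Gstp2 had log2 fold changes of -0.09 and -0.06. The hepatocyte marker score was lower in every parous array than in every virgin array (-0.42 to -0.08 against 0.06 to 0.39), and Fgb and Fgg were named after their values were seen. The median log2 fold change of the 9 markers was 0.005, and 2 of them were lower at an unadjusted p under 0.05 from limma. The score thus does not describe the list as a whole. Cyp7b1 was the 1 gene of the 39 in which replicates 1 and 2 lay below replicates 3 and 4 in both groups, a pattern that 2.67% of all genes above the array median shared.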
